A study of Mus musculus with 60 samples.

Results

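The lungs of SPIO nanoparticle exposed mice at 48 h were compared with the lungs of SPIO nanoparticle exposed mice at 0 h, which asks what changed inside the exposed arm over the 48 h after the inhalation had ended. The 10 lungs were found by their labels, 5 at 0 h and 5 at 48 h, among the 60 lungs of the series, and no measured value was used to choose them. All 60 animals were male Balb/c mice, for which no genotype beyond the strain and no age is named. The exposed mice had inhaled an aerosol of superparamagnetic iron oxide (SPIO) nanoparticles for 4 h. Sham controls had breathed the humidified helium, oxygen and filtered air atmosphere without particles for the same 4 h. Both arms sat in nose-only restraint tubes, and groups of 5 were sacrificed at 0, 6, 24, 48, 96 and 168 h, so that a 0 h lung came directly from the tube. Total RNA came from 1 lobe of the lung per mouse, the right diaphragmatic lobe, and each mouse had its own array.

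Inhaled particles are taken up by alveolar macrophages and airway epithelium, which release chemokines. The CXC chemokines Cxcl1, Cxcl2, Cxcl3 and Cxcl5 bind the receptor CXCR2 and draw neutrophils out of the blood, and NF-kB, a transcription factor family held back by inhibitors such as Tnfaip3, switches their genes on. Iron and oxidants act through NRF2, which switches on Hmox1 and Gclc, and later phases of a lung response commonly bring macrophages, acute phase proteins, matrix and cell division.

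Values are log2 RMA values, a scale on which 1 unit is a 2-fold difference. Array medians of the 20 lungs of both arms at 0 h and 48 h lay between 5.54 and 5.62. The lung markers were at the top of the scale in the 10 exposed lungs, with Sftpc (surfactant protein C of alveolar type 2 cells) at 14.90 to 14.95, Scgb1a1 (the secretory protein of club cells) at 14.99 to 15.06, Ager (alveolar type 1 cells) at 14.52 to 14.72 and Cdh5 (endothelium) at 11.27 to 11.51. One sham lung went against its labels: sham 0 h mouse 1 had Xist, the RNA of the inactive X chromosome in females, at 11.94, where the other sham 0 h mice lay between 5.25 and 5.62, and it had Alb, the albumin of hepatocytes, at 14.02 against 5.27 to 6.78. Alb was also high in SPIO 0 h mouse 1, at 10.38, and in sham 48 h mice 2 and 5, at 9.79 and 10.26. Results that rest on sham 0 h mouse 1 are therefore given with it and without it. In whole lung, fewer cells of a type and less RNA per cell cannot be told apart. The labels give no array batch or date, so sacrifice time and any batch shared by a group cannot be told apart either.

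Of 18193 genes tested, 94 (0.517%) passed at an adjusted p under 0.05, of which 57 (0.313%) were higher at 48 h and 37 (0.203%) lower. Their fold changes were mostly moderate, since 50 of the 94 changed at least 1.5-fold and 12 at least 2-fold. The 5 values of each group did not overlap in 82 of the 94, 48 of them higher and 34 lower, whereas among all genes tested 436 (2.40%) did not overlap. The calls rest on the same values, so a lack of overlap is a description and not separate evidence for them. The median change over all genes was 0.005 on the log2 scale. A gene whose 5 and 5 values do not overlap has a two-sided exact permutation p of 0.00794, the smallest that the 252 divisions of 10 mice allow, and the limma fit with Benjamini-Hochberg adjustment over all genes was used for the calls. An unadjusted p under 0.05 was reached by 1573 genes. A test of the 2 groups alone with unequal variances, which is not the study's own test (that spanned several groups and had a post hoc step), gave 0 calls after adjustment and 1409 genes at an unadjusted p under 0.05, among them all 94. The number of calls also moved with single mice: it was 50 without SPIO 0 h mouse 1, 47 without mouse 2 and 57 without mouse 4 of that group, and 39, 51 and 61 without SPIO 48 h mice 1, 3 and 4. Of the 94 genes, 27 were called whichever of the 10 mice was left out.

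Chemokines of neutrophils were the genes that fell most. Of 33 chemokines measured, 4 fell (Cxcl1, Cxcl2, Cxcl3 and Cxcl5), 1 rose (Ccl6) and 28 did not pass the test, against 0.203% of all genes lower and 0.313% higher, and the median change of the 33 was -0.03 on the log2 scale. Cxcl1, Cxcl2 and Cxcl3 are neighbours on the forward strand of chromosome 5, and the 300 bases around each start (250 before it and 50 after it, RefSeq, GRCm38.p6) are shown because each window holds the letters GGNNTTTCC, part of the consensus that NF-kB binds. The windows lie at chr5:90890995-90891294 for Cxcl1, chr5:90903649-90903948 for Cxcl2 and chr5:90785851-90786150 for Cxcl3. Capitals mark every match on either strand.
Cxcl1: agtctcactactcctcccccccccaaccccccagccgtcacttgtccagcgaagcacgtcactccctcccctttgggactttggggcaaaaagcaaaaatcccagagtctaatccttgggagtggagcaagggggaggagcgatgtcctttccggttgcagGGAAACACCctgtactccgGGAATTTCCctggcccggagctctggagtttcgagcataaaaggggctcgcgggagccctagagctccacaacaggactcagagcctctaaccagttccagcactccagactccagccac
Cxcl2: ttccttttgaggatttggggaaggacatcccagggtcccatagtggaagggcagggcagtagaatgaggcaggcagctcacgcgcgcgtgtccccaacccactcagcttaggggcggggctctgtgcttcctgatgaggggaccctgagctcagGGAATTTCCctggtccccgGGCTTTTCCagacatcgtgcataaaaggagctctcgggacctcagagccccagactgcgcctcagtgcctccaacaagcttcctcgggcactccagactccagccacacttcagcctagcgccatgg
Cxcl3: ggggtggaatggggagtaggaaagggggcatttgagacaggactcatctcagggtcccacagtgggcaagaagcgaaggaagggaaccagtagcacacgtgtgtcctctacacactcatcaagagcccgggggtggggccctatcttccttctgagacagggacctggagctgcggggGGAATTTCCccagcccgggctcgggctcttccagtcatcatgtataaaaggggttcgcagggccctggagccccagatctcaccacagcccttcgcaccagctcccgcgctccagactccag
The matches of Cxcl1 begin 89 and 70 bases before the start, those of Cxcl2 begin 96 and 77 bases before it, and that of Cxcl3 begins 72 bases before it. Among all 32851 promoter windows 5.82% hold these letters, and among the called genes with a window they stand in 6 of 27 lower genes (Cxcl1, Cxcl2, Cxcl3, Rsad2, Snhg8 and Tnfaip3) and in 2 of 52 higher genes (Igf1 and Saa3). The share is of windows, whereas a called gene was counted if any of its windows held the letters. The motif was chosen after the values had been seen, and a match is a description of letters, not a site shown to be bound.

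The values of the 4 chemokines separated the times in nearly every mouse. Cxcl1 stood at 9.70, 10.36, 8.60, 10.30 and 9.83 in SPIO 0 h mice 1 to 5 and at 7.62, 7.27, 8.18, 7.60 and 7.38 in SPIO 48 h mice 1 to 5. These groups did not overlap, and the fall was 4.44-fold (log2 fold change -2.15 ± 0.29 SE, adjusted p = 7.96e-06). Cxcl2 had 6.87, 7.36, 5.83, 7.22 and 7.13 at 0 h and 4.69, 4.77, 5.29, 4.86 and 4.31 at 48 h, again with no overlap. Its log2 fold change was -2.10 ± 0.30 (4.29-fold lower, adjusted p = 2.54e-05). Cxcl3, a low-level transcript in resting lung, went from 4.46, 5.23, 3.88, 6.11 and 5.96 to 2.88, 2.89, 3.60, 2.89 and 2.73. Every 0 h mouse was above every 48 h mouse, at a log2 fold change of -2.13 ± 0.28 (4.37-fold, adjusted p = 3.82e-06). Cxcl5, made mainly by epithelium in lung, had the largest fall and the widest spread, with 8.54, 8.47, 6.85, 9.05 and 8.85 at 0 h and 5.52, 4.20, 7.34, 5.45 and 5.49 at 48 h. Here 0 h mouse 3 lay below 48 h mouse 3, so the groups overlapped (log2 fold change -2.75 ± 0.52, 6.73-fold, adjusted p = 0.00275, exact permutation p = 0.0159). For all 4 chemokines mouse 3 was the lowest of the 0 h group and mouse 3 was the highest of the 48 h group; these are different animals. All 4 falls were called whichever mouse was left out.

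**Figure D1:**
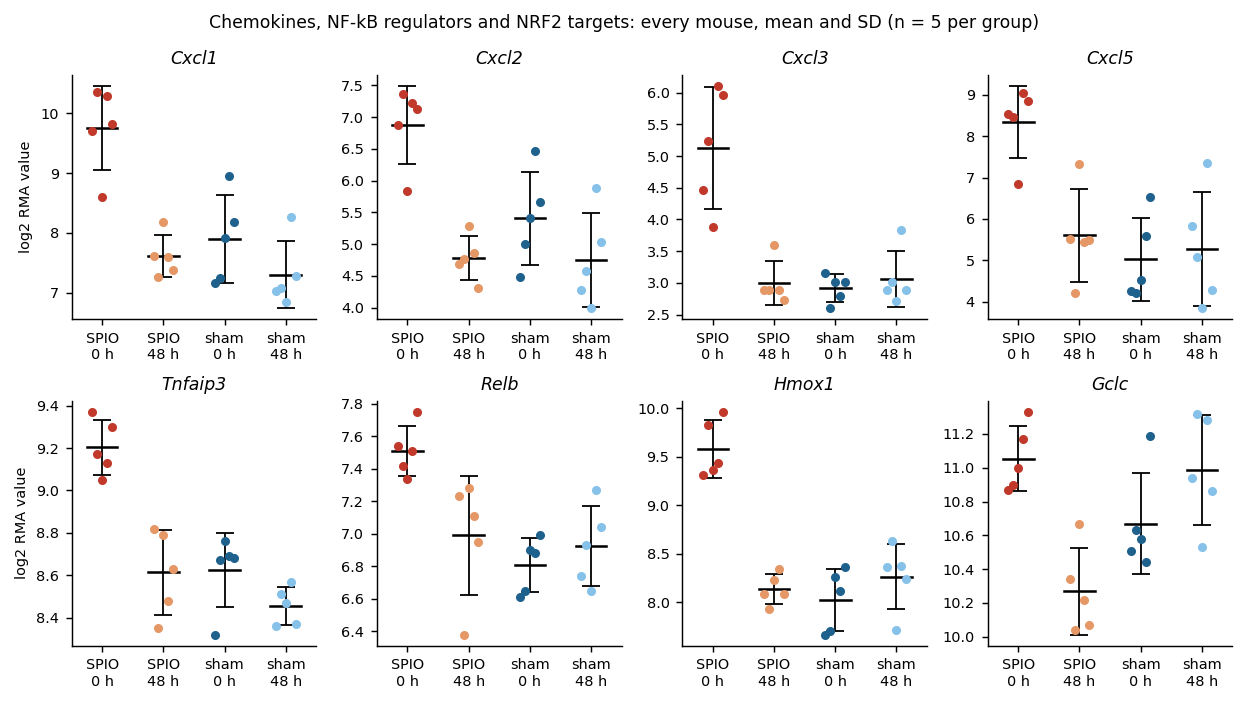
Log2 RMA values (vertical axes, each with its own range) of 8 genes that fell between 0 h and 48 h in exposed lungs, with 1 point per mouse, a long bar for the mean and whiskers of 1 SD (n = 5 per group), beside the sham controls of the same times. The SPIO 0 h points of Cxcl1, Cxcl2, Cxcl3, Tnfaip3, Relb, Hmox1 and Gclc lie above all SPIO 48 h points, and those of Cxcl5 overlap by 1 mouse in each group.

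The other chemokines moved less. Ccl20, which draws dendritic cells and lymphocytes through CCR6, had a log2 fold change of -1.41 ± 0.37 (adjusted p = 0.0557), with 48 h mouse 3 at 7.67 above 0 h mouse 3 at 7.16. A list of the study's primer targets with Ccl17, another chemokine its authors name, held 9 measured genes, of which 4 fell and 0 rose; its authors chose them on these lungs, so the list is no independent evidence of direction. One primer target is printed as CCL15 with an accession that belongs to Cxcl15, and is given here under that second symbol. The other 5 did not pass the test: Cxcl15 had a log2 fold change of -0.09, Ccl3 of -0.34, Ccl17 of -0.23, Vnn1 (pantetheinase) of -0.36 and Ccl9 of 0.41, with adjusted p-values from 0.677 to 0.886. Ccl6, a chemokine of macrophages and monocytes, rose from 12.11, 12, 12.47, 11.95 and 12.43 to 12.82, 12.79, 12.92, 12.79 and 12.88 with no overlap. Its log2 fold change was 0.65 ± 0.14 (1.57-fold, adjusted p = 0.0128), and the adjusted p was 0.0677 without SPIO 0 h mouse 2 and 0.0612 without SPIO 0 h mouse 4. None of 15 chemokine receptors passed, with a median of 0.02.

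Of 27 inflammatory cytokines and regulators, 3 fell (Tnfaip3, Nfkbiz and Relb), 0 rose and 24 had a negative change, with a median of -0.19; of all genes 0.203% fell, 48.2% had a negative change and the median was 0.005. All 3 belong to NF-kB signalling, Tnfaip3 as the ubiquitin-editing enzyme A20 that ends it, Nfkbiz as a nuclear inhibitor protein that also helps transcription, and Relb as a subunit of NF-kB itself. Tnfaip3 is shown because its window, too, holds GGNNTTTCC, at 24 and 12 bases before the start; it is 1 of 2 windows of the gene in the RefSeq table and lies on the reverse strand at chr10:19015361-19015660.
Tnfaip3: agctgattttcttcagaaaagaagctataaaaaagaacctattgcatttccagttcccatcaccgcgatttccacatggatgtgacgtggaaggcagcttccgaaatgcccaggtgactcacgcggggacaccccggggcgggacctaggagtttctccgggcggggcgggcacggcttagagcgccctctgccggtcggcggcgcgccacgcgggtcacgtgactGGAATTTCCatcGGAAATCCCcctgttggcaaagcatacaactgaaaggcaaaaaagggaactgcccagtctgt
Tnfaip3 had 9.37, 9.17, 9.05, 9.13 and 9.30 at 0 h against 8.82, 8.35, 8.79, 8.48 and 8.63 at 48 h, which did not overlap. The log2 fold change was -0.59 ± 0.10 (1.51-fold, adjusted p = 0.00137), called whichever mouse was left out. Nfkbiz (-0.59 ± 0.14, adjusted p = 0.0308) and Relb (-0.52 ± 0.13, adjusted p = 0.0332) did not overlap between the times either, but they were called in 3 and 4 of the 10 fits with a mouse left out. The adjusted p rose to 0.192 for Nfkbiz without SPIO 0 h mouse 4, whose value of 9.53 was the highest, and to 0.198 for Relb without SPIO 48 h mouse 2, whose value of 6.38 was the lowest. Among members that did not pass were Nfkbia, the classical NF-kB inhibitor (-0.33, adjusted p = 0.278), Ptgs2, the inducible prostaglandin synthase (-0.87, adjusted p = 0.308), and Il33, an epithelial alarm cytokine (-0.53, adjusted p = 0.311). Of 22 immediate early genes 0 passed, 18 had a negative change and the median was -0.26; Egr1 lay at -0.86 (adjusted p = 0.0702) without overlap between groups.

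Genes of heme, iron and NRF2 split in direction. Of 28 measured, 2 fell (Hmox1 and Gclc), 2 rose (Tfrc and Slc11a1) and 24 did not pass, with a median of 0.01. Of all genes 0.203% fell and 0.313% rose. Hmox1, the heme oxygenase that frees iron from heme, stood at 9.31, 9.83, 9.36, 9.44 and 9.96 at 0 h and at 8.09, 7.93, 8.23, 8.34 and 8.09 at 48 h. The gap between the groups was wider than the spread within them, and the log2 fold change of -1.45 ± 0.18 (2.73-fold lower) had the smallest adjusted p of all genes, 1.9e-06. Gclc, which makes the rate-limiting step of glutathione synthesis, went from 10.87, 10.90, 11, 11.17 and 11.33 to 10.34, 10.04, 10.67, 10.22 and 10.07. It fell 1.73-fold (-0.79 ± 0.18, adjusted p = 0.0221) without overlap, and was called in 4 of the 10 fits with a mouse left out, with an adjusted p of at most 0.0721. Txnrd1, another NRF2 target, missed the threshold at -0.32 (adjusted p = 0.102). Tfrc, the receptor through which cells import iron on transferrin, rose from 9.98, 9.71, 9.84, 9.83 and 9.63 to 10.64, 10, 10.67, 10.75 and 10.24. The lowest 48 h mouse lay just above the highest 0 h mouse (log2 fold change 0.66 ± 0.12, 1.58-fold, adjusted p = 0.00137), and the call held whichever mouse was left out but not when its probe sets were averaged (0.44, adjusted p = 0.249). Slc11a1, which pumps iron and manganese out of the phagosome of macrophages, rose by 0.54 ± 0.13 (adjusted p = 0.0295) and was called in 2 of the 10 fits with a mouse left out. In the list of metallothioneins and zinc transporters, 1 of 5 members rose, the zinc importer Slc39a10 (0.36 ± 0.09, adjusted p = 0.0422), whose groups overlapped.

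A further set of genes fell in both arms. Angptl7, a secreted angiopoietin-like protein, went from 8.50, 8.65, 8.21, 7.67 and 7.91 to 6.09, 6.61, 7.16, 6.26 and 7.19 in exposed lungs. It fell 2.88-fold without overlap (-1.52 ± 0.32, adjusted p = 0.00746), and without SPIO 48 h mouse 1 the adjusted p was 0.052. Itih5, a hyaluronan-binding matrix protein, went from 9.03, 8.90, 8.93, 8.44 and 8.99 to 7.54, 7.43, 8.13, 7.69 and 7.99. It fell 2.15-fold (-1.10 ± 0.20, adjusted p = 0.00137) and was called whichever mouse was left out. Acot1 and Acot2, which release fatty acids from coenzyme A in fasting tissue, had log2 fold changes of -0.94 (adjusted p = 0.0222) and -0.74 (adjusted p = 0.00531). Tcf23 fell by 0.97 on the log2 scale (adjusted p = 0.0395). Acot1 was called in 5, Acot2 in 9 and Tcf23 in 2 of the 10 fits with a mouse left out. In sham controls the same 5 genes were lower at 48 h too, at -2.10 for Angptl7, -1.53 for Itih5, -0.96 for Acot1, -0.64 for Acot2 and -1.31 for Tcf23, with adjusted p-values from 4.76e-06 to 0.00349. Without sham 0 h mouse 1 these were -2.63, -1.64, -1.18, -0.77 and -1.65. Of 19 genes of the glucocorticoid and fasting response, Acot1 was the 1 that passed in exposed lungs, where 0.203% of all genes fell.

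Alas2, the erythroid enzyme that opens heme synthesis, went from 10.99, 10.87, 10.38, 10.99 and 10.69 to 10.13, 9.54, 9.84, 9.89 and 10.26. It fell 1.81-fold without overlap (-0.85 ± 0.17, adjusted p = 0.00632), called whichever mouse was left out. It was the 1 called member of 10 measured genes of platelets and erythroid cells, whose median was 0; Slc4a1, the band 3 anion exchanger, had a log2 fold change of -1.04 with an adjusted p of 0.0518. Slc25a37, the mitochondrial iron importer of erythroid cells, was named after its values were seen and fell by 0.67 on the log2 scale (adjusted p = 0.0169). Among the other lower genes, Rsad2, an antiviral protein and the 1 called member of 21 interferon-stimulated genes, fell by 0.97 (adjusted p = 0.021), Vipr2, a receptor of vasoactive intestinal peptide, by 0.73 (adjusted p = 0.0227) and Cd83, a marker of mature dendritic cells, by 0.70 (adjusted p = 0.0422). Rsad2 was called in 6, Vipr2 in 5 and Cd83 in 2 of the 10 fits with a mouse left out. In sham controls Alas2 had -0.47 (adjusted p = 0.0677), and without sham 0 h mouse 1 it was called there (-0.53, adjusted p = 0.0437). Slc25a37 had -0.30 in sham controls, Rsad2 -0.49 and Cd83 -0.12, and none of them passed there with or without that mouse. For Alas2, Slc25a37, Rsad2 and Cd83 the difference between the arms did not pass.

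The genes that rose most were secreted proteins of the acute phase and of myeloid cells. Saa3, an acute phase serum amyloid made in lung by macrophages and epithelium, stood at 9.09, 8.85, 7.71, 8.88 and 8.89 at 0 h and at 10.52, 10.94, 11.39, 11.04 and 10.78 at 48 h. Every 48 h mouse was above every 0 h mouse, and the rise was 4.77-fold (log2 fold change 2.25 ± 0.44, adjusted p = 0.0035). Wfdc17, a small secreted protein of myeloid cells, went from 9.03, 9.20, 8.59, 8.68 and 9.76 to 10.19, 10.70, 10.66, 10.62 and 11.01. It rose 3-fold without overlap (1.58 ± 0.30, adjusted p = 0.00275). Prok2, a chemokine-like peptide of neutrophils and macrophages, went from 3.71, 4.10, 3.42, 3.51 and 3.70 to 4.11, 6.11, 4.80, 5.72 and 5.97. The 48 h mice were spread over more than the whole 0 h range and mouse 1 lay level with the highest 0 h mouse (1.66 ± 0.37, 3.15-fold, adjusted p = 0.0169). Saa3 and Wfdc17 were called whichever mouse was left out, and Prok2 in 7 of the 10 fits, with an adjusted p of 0.0685 without SPIO 48 h mouse 2, 0.0557 without mouse 4 and 0.0583 without mouse 5. The 0 h values of Prok2 lay near the low end of the scale, and 0 of its 2 other probe sets passed. With its probe sets averaged the log2 fold change was 0.79 (adjusted p = 0.0264). Of 12 acute phase and iron-sequestering genes, Saa3 was the 1 that passed, 11 had a positive change and the median was 0.46. Of all genes 0.313% rose and 51.8% had a positive change. Lcn2, which withholds siderophore iron from bacteria, had a log2 fold change of 0.72 (adjusted p = 0.193). For the copper oxidase Cp it was 0.43 (adjusted p = 0.373).

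**Figure D2:**
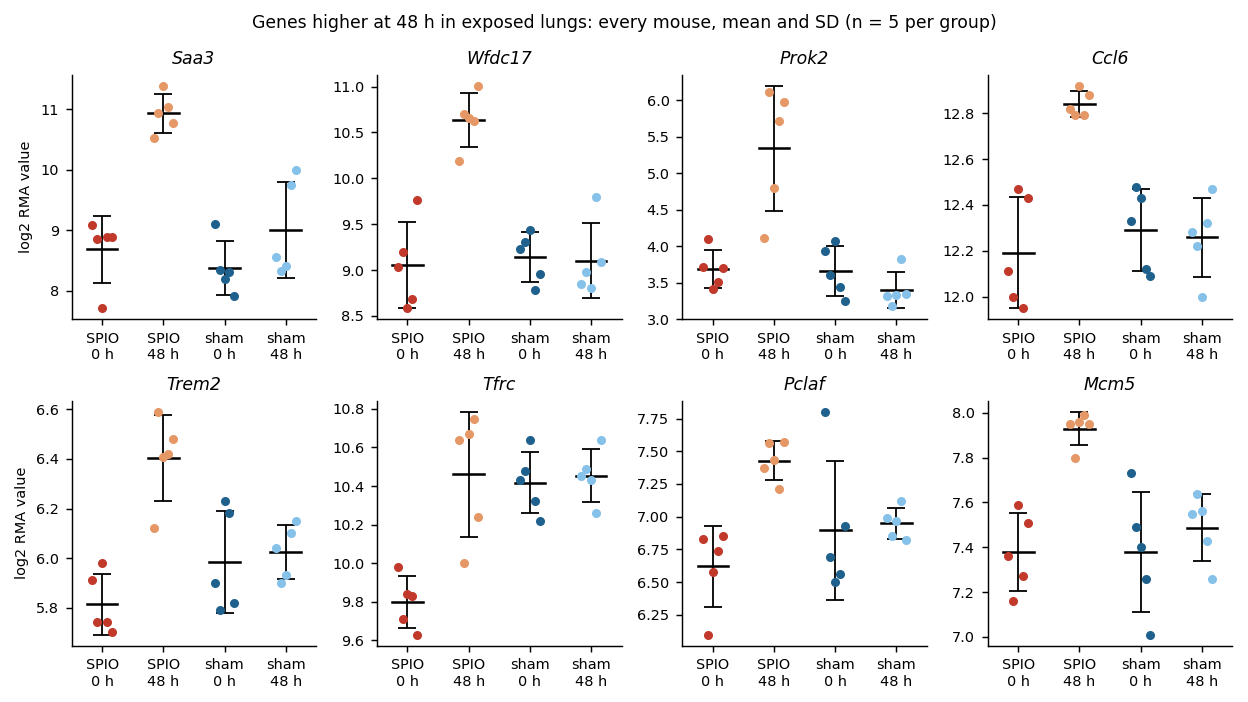
Log2 RMA values (vertical axes, each with its own range) of 8 genes that rose between 0 h and 48 h in exposed lungs, with 1 point per mouse, a long bar for the mean and whiskers of 1 SD (n = 5 per group), beside the sham controls of the same times. All SPIO 48 h points lie above all SPIO 0 h points in each panel; for Tfrc the SPIO 0 h points also lie below all sham points, and the high sham 0 h point of Pclaf, at 7.80, is mouse 1.

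Cell division was represented by few called genes. Of 28 DNA replication genes 1 rose (Mcm5), 0 fell and 23 had a positive change, with a median of 0.17; of all genes 0.313% rose and 51.8% had a positive change. Of 49 genes of mitosis and cytokinesis 0 passed, 27 had an unadjusted p under 0.05 (8.65% of all genes did), 44 had a positive change and the median was 0.35, the members running from -0.17 for Smc4 to 0.86 for Top2a. Mcm5 is a subunit of the helicase that opens DNA for replication. Its promoter window, at chr8:75109259-75109558 on the forward strand, is shown because it is the only one among the 79 called genes with a window that holds TTTNGCGC, part of the consensus of E2F, the factors that switch on replication genes; 1.38% of all windows hold it.
Mcm5: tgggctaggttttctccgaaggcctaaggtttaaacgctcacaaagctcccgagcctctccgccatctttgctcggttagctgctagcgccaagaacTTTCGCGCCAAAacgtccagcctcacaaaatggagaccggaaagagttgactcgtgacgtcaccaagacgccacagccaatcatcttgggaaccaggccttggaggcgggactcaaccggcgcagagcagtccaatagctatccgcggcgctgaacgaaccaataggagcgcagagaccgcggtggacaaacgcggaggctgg
The capitals cover a match on each strand, which overlap and begin 153 and 149 bases before the start. Mcm5 went from 7.36, 7.16, 7.59, 7.27 and 7.51 to 7.95, 7.80, 7.96, 7.99 and 7.95 without overlap. The rise was 1.47-fold (0.55 ± 0.13, adjusted p = 0.0222), called in 4 of the 10 fits with a mouse left out, with an adjusted p of up to 0.105 without SPIO 0 h mouse 2; averaged over its 3 probe sets the log2 fold change was 0.31 and the adjusted p 0.309. Pclaf, which binds the replication clamp PCNA, belongs to no list and rose 1.75-fold, from 6.83, 6.10, 6.58, 6.74 and 6.85 to 7.37, 7.56, 7.43, 7.21 and 7.57. The groups did not overlap (0.81 ± 0.17, adjusted p = 0.0074), and the adjusted p was 0.0686 without SPIO 0 h mouse 2 and 0.318 when its probe sets were averaged.

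Several division genes stood just beyond the threshold. Rrm2, the ribonucleotide reductase subunit that limits the supply of DNA building blocks, had 6.77, 6.35, 6.38, 6.83 and 6.95 at 0 h and 7.08, 7.68, 7.68, 7.31 and 7.59 at 48 h. The groups did not overlap, but the log2 fold change of 0.81 ± 0.21 had an adjusted p of 0.0545. Smc2, a condensin subunit, had 0.48 ± 0.12 (adjusted p = 0.0508) and Top2a, the topoisomerase of mitotic chromosomes, 0.86 ± 0.23 (adjusted p = 0.0706), both without overlap. Mki67, the usual marker of cycling cells, had 6.35, 5.70, 6.03, 6.68 and 6.99 at 0 h and 7.11, 6.86, 7.55, 7.0 and 7.35 at 48 h. The groups overlapped (0.82 ± 0.27, adjusted p = 0.219). Another 4 called genes near this theme were named after their values were seen: Ccnd3, a D-type cyclin (0.42, adjusted p = 0.00832), Tubb5, a beta tubulin (0.39, adjusted p = 0.00275), Shcbp1, a protein of the dividing cell's midbody (0.73, adjusted p = 0.0366), and Ube2t, a ubiquitin-conjugating enzyme of DNA crosslink repair (0.69, adjusted p = 0.0499). Ccnd3 and Tubb5 were called whichever mouse was left out, Shcbp1 in 3 and Ube2t in 2 of the 10 fits. Tubb5 also rose in sham controls, by 0.22 (adjusted p = 0.0448), and by 0.29 (adjusted p = 0.00456) without sham 0 h mouse 1. Ccnd3, Shcbp1 and Ube2t were not called there with or without that mouse. With probe sets averaged, Ccnd3 had 0.12 (adjusted p = 0.798) and Ube2t 0.35 (adjusted p = 0.254). With the arrays quantile normalized again, with the arrays centred on their medians, and with the 2 groups fitted alone, DNA replication had 2, 2 and 3 higher members and mitosis had 1 in each.

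Macrophage markers were likewise mostly below the threshold. Of 40 measured, 1 rose (Trem2), 0 fell and 28 had a positive change, with a median of 0.14. Of all genes 0.313% rose and 51.8% had a positive change. Trem2, a lipid-sensing receptor of macrophages, went from 5.91, 5.74, 5.98, 5.74 and 5.70 to 6.12, 6.59, 6.41, 6.42 and 6.48 without overlap. Its rise was 1.51-fold (0.59 ± 0.13, adjusted p = 0.0207), with an adjusted p of 0.0677 without SPIO 0 h mouse 2, 0.0571 without SPIO 0 h mouse 4, 0.0674 without SPIO 48 h mouse 2 and 0.0732 when its probe sets were averaged. Ctsk (0.78, adjusted p = 0.111), Itgax (0.47, adjusted p = 0.215) and Cd68 (0.54, adjusted p = 0.27) did not pass. Aif1, the calcium-binding protein Iba1 of macrophages and in no list here, rose from 6.09, 5.62, 6.38, 5.82 and 6.43 to 7.53, 6.64, 7.21, 7.09 and 6.64. The groups did not overlap (0.96 ± 0.23, adjusted p = 0.0361), and 4 of the 10 fits with a mouse left out kept the call; the adjusted p was 0.172 without SPIO 48 h mouse 1. Fcer1g, the signalling chain of Fc receptors, was the 1 member of 24 innate immune receptors that passed (0.59 ± 0.14, adjusted p = 0.0319), in 2 of the 10 fits with a mouse left out. Of the lists that match a shift from early chemokines to cell division and macrophages, as this comparison had been described, 4 chemokines fell, and 1 replication gene, 0 mitosis genes and 1 macrophage marker rose; Pclaf, Aif1 and the other called genes named above stand outside these lists.

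No member of the lists of other white blood cells passed the test, and Cd83, called above, is in none of these lists. Of all genes 51.8% had a positive and 48.2% a negative change. Of 16 neutrophil genes 0 passed and 14 had a positive change, with a median of 0.64: S100a8 had a log2 fold change of 0.99 (adjusted p = 0.359), S100a9 of 1.08 (adjusted p = 0.307) and the collagenase Mmp8 of 1.44 (adjusted p = 0.386). Of 14 monocyte genes 0 passed and 13 had a positive change, with a median of 0.58, led by Ifitm6 at 1.81 (adjusted p = 0.0706) with no overlap. In sham controls 7 of the 14 were higher at 48 h and 2 lower, with or without sham 0 h mouse 1, against 3.79% of all genes higher. The sham median of the list was 0.95 with that mouse, so its rise was not confined to exposed lungs. Of 16 genes of B and plasma cells 0 passed and 15 had a negative change, with a median of -0.36. In that list SPIO 48 h mouse 2 was the lowest of its group for Cd79b, at 6.46 against 7.61 to 7.83 in the others, and for Pou2af1, at 4.95 against 6.07 to 6.19. None of 22 genes of T and NK cells, 16 of dendritic cells and MHC class II, or 13 of eosinophils, basophils and mast cells passed. The mean log2 value of the neutrophil list ran from 7.83 to 8.95 in the 0 h mice and from 8.54 to 9.21 in the 48 h mice, and that of the monocyte list from 8.42 to 8.87 and from 9.06 to 9.56. In sham controls the neutrophil list ran from 7.92 to 9.01 at 0 h and from 7.94 to 8.97 at 48 h, with a median change of -0.06. The monocyte list ran there from 8.08 to 8.96 and from 8.70 to 9.57. The part of these cells in the rise of Saa3, Wfdc17 and Prok2 was not tested.

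Genes of matrix and growth rose in a few members. Of 24 genes of fibroblasts and matrix 2 rose (Timp1 and Tcf21), 0 fell and 20 had a positive change, with a median of 0.27. Of all genes 0.313% rose and 51.8% had a positive change. Timp1, the inhibitor of matrix metalloproteinases, went from 6.46, 6.93, 7.23, 7.20 and 7.34 to 8.20, 8.59, 8.06, 8.09 and 8.47. It rose 2.39-fold without overlap (1.25 ± 0.29, adjusted p = 0.0256) and was called in 5 of the 10 fits with a mouse left out, with an adjusted p of up to 0.101 without SPIO 0 h mouse 1. Igf1, the insulin-like growth factor of macrophages and fibroblasts, went from 6.77, 6.97, 7.63, 7.56 and 7.49 to 8.78, 7.79, 8.48, 8.26 and 8.57. It rose 2.13-fold without overlap (1.09 ± 0.25, adjusted p = 0.0222), called in 5 of the 10 fits, with an adjusted p of up to 0.104 without SPIO 48 h mouse 1. In sham controls Igf1 had 0.70 (adjusted p = 0.057), and without sham 0 h mouse 1, at 9.10 the highest of its group, it rose there by 1.11 (adjusted p = 0.000182), with a difference between the arms of -0.02. Tcf21, a transcription factor of lung fibroblasts, rose by 0.66 (adjusted p = 0.024) with overlapping groups, and without sham 0 h mouse 1 it also rose in sham controls (0.45, adjusted p = 0.0475). Pcolce, which speeds procollagen processing, rose 1.81-fold (0.86 ± 0.13, adjusted p = 8.89e-05), from 9.90, 10, 10.52, 10.56 and 10.38 to 11.34, 10.86, 11.35, 11.15 and 10.96. Lgals1, a galactose-binding lectin of stroma and macrophages, rose 1.75-fold (0.81 ± 0.14, adjusted p = 0.000548), and Pcolce and Lgals1 were called whichever mouse was left out. Gdf10, a secreted factor of the TGF-beta family, rose by 0.88 (adjusted p = 0.0221), the imprinted noncoding RNA Rian by 0.97 (adjusted p = 0.000483) and the lipid transporter Abca8b by 0.83 (adjusted p = 0.00227). Collagen genes named after their values were seen were Col6a2 (0.62, adjusted p = 0.0074) and Col6a3 (0.77, adjusted p = 0.0243), while Col3a1 had 0.81 with an adjusted p of 0.0706 and Col1a1 0.62 with 0.193.

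Several chaperones of the endoplasmic reticulum rose. Of 18 genes of the unfolded protein response 5 rose (Sdf2l1, Calr, Pdia4, Pdia6 and Hyou1), 0 fell and 13 did not pass, against 0.313% of all genes higher, with a median of 0.07. Sdf2l1 went from 8.33, 8.41, 8.33, 8.51 and 8.42 to 9.49, 8.89, 9.47, 9.18 and 9.08. It rose 1.77-fold without overlap (0.82 ± 0.17, adjusted p = 0.00569), called whichever mouse was left out. Calr, the calcium-binding chaperone calreticulin, went from 11.88, 11.88, 11.95, 11.98 and 11.85 to 12.54, 12.31, 12.33, 12.21 and 12.42 (0.46 ± 0.10, adjusted p = 0.00832). The 0 h mice lay within a narrow band and all 48 h mice above it. The disulfide isomerases Pdia4 (0.54, adjusted p = 0.00832) and Pdia6 (0.53, adjusted p = 0.0208) and the chaperone Hyou1 (0.52, adjusted p = 0.0478) did not overlap either; Hyou1 was called in 0 of the 10 fits with a mouse left out, and averaging each gene's probe sets left 2 members of the list called. Other called genes of the same compartment, named after their values were seen, were Pdia3 (0.52, adjusted p = 0.00162) and Rpn1 (0.39, adjusted p = 0.0074), both called whichever mouse was left out, and Rpn2 (0.27, adjusted p = 0.0366) and Ssr1 (0.28, adjusted p = 0.0221). In sham controls Pdia3, Rpn1, Rpn2 and Ssr1 rose too, by 0.39, 0.36, 0.20 and 0.35, with adjusted p-values from 0.000312 to 0.0365. Without sham 0 h mouse 1 these rises were 0.46, 0.44, 0.24 and 0.41.

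The promoter windows of Calr and Pdia6 are shown because they hold the endoplasmic reticulum stress element, CCAAT and CCACG with 9 bases between them, which 0.119% of all windows hold. They lie on the reverse strand at chr8:84846882-84847181 for Calr, with the element on its minus strand, and on the forward strand at chr12:17266339-17266638 for Pdia6. Capitals mark the whole element, bases between included.
Calr: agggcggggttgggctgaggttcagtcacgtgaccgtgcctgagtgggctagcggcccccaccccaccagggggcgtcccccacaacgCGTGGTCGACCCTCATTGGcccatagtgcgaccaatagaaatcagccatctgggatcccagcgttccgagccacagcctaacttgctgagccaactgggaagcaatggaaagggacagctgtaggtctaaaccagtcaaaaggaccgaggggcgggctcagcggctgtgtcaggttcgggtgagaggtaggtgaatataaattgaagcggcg
Pdia6: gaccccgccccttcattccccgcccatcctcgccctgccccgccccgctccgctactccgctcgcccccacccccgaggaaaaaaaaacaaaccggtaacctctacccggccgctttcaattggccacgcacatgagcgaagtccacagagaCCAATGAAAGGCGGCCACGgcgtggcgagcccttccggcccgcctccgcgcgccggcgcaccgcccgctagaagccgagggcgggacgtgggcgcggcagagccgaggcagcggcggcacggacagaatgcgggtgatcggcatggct
The element begins 162 bases before the start in Calr and 98 bases before it in Pdia6, and 0 of the 27 lower genes with a window hold it. CCAAT alone was common, in 37.4% of all windows, in 28 of 52 higher genes and in 13 of 27 lower genes. The heat shock element letters GAANNTTC stood in 7.86% of all windows, 6 of the higher and 1 of the lower genes, and CACGTG in 7.15%, 8 and 2. TTTGAA stood in 17.9% of all windows, 4 of the higher and 1 of the lower genes. Here too the shares are of windows and the counts of genes with a match in any window. These motifs too were chosen after the values had been seen.

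Whether a change belonged to the exposed arm was asked in sham controls over the same 48 h. In the sham controls 2098 genes (11.5%) differed between 48 h and 0 h, 689 higher (3.79%) and 1409 lower (7.74%), and without sham 0 h mouse 1 there were 2654. With only the 2 sham groups fitted 12 genes were called, and 0 by the unequal-variance test. The sham calls and their overlap with the exposed calls thus depend on the spread estimated over all 12 groups. The share of higher calls there depended on scaling, at 32.8% as deposited, 47.9% with the arrays quantile normalized again and 59.0% with the arrays centred on their medians. Of the 94 genes called in exposed lungs, 42 were called in sham controls in the same direction, which is 44.7% of the exposed calls and 2% of the sham calls, and 0 were called in the opposite direction; without sham 0 h mouse 1 the number was 47. They comprised 28 of the 57 higher and 14 of the 37 lower genes. All 5 called members of the unfolded protein response were among them, at sham log2 fold changes of 1.02 for Sdf2l1, 0.55 for Calr, 0.52 for Pdia4, 0.67 for Pdia6 and 0.48 for Hyou1, and without sham 0 h mouse 1 these were 1.16, 0.65, 0.58, 0.79 and 0.56. In sham controls 11 of the 18 members were higher with or without that mouse, against 3.79% of all genes. Pcolce (0.84), Lgals1 (0.72), Aif1 (0.69) and the water channel Aqp5 (0.69; 0.54 in exposed lungs, where it was the 1 called member of 12 genes of alveolar type 1 cells) were also higher at 48 h in sham controls, with adjusted p-values from 2.57e-05 to 0.0449; without sham 0 h mouse 1 they had 0.97, 0.92, 1.03 and 0.81.

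**Figure D3:**
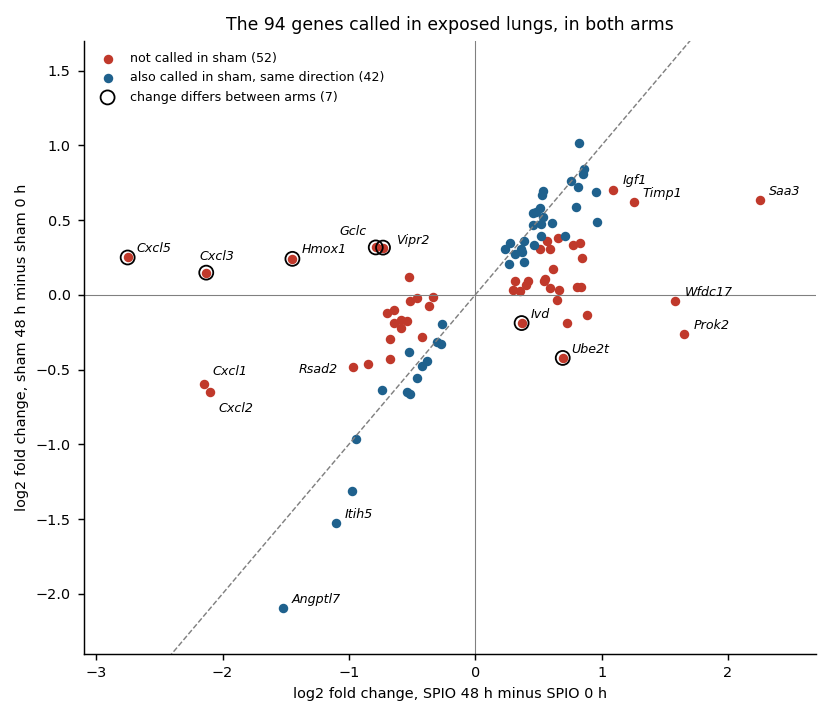
Log2 fold change from 0 h to 48 h of the 94 genes called in exposed lungs, in exposed lungs (horizontal axis) and in sham controls (vertical axis), with 1 point per gene, blue where the sham change was called in the same direction (42 genes), red where it was not (52 genes) and a black ring where the change differed between the arms (7 genes); the dashed line marks equal change. Cxcl1, Cxcl2, Cxcl3, Cxcl5 and Hmox1 lie far above the line on the left, and Saa3, Wfdc17 and Prok2 far below it on the right.

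The difference between the arms was tested itself, as the interaction of arm and time. It was called for 111 genes (0.610%), 91 with a more positive change in exposed lungs and 20 with a more negative one; with the arrays quantile normalized again the split was 58 and 41, and with the arrays centred on their medians 45 and 47. Without sham 0 h mouse 1, 326 genes were called, among them all 111. Only 7 of the 94 genes called in exposed lungs were among the 111, which is 7.45% of the exposed calls and 6.31% of the difference calls, and 100 of the 111 were called in sham controls (97 without sham 0 h mouse 1). The 7 were Cxcl3, Cxcl5, Hmox1, Gclc and Vipr2, with a more negative change in exposed lungs, and Ube2t and Ivd (an enzyme of leucine breakdown, named after its values were seen), with a more positive one.

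Hmox1 differed most clearly. In sham 0 h mice 1 to 5 it stood at 7.67, 7.71, 8.26, 8.12 and 8.36, and in sham 48 h mice 1 to 5 at 8.36, 8.63, 7.72, 8.38 and 8.24. The sham groups overlapped throughout (0.24 ± 0.18, adjusted p = 0.385; 0.15 and 0.623 without sham 0 h mouse 1), and the difference of the changes was -1.69 ± 0.25 (adjusted p = 0.000336), or -1.60 (adjusted p = 0.000464) without that mouse. Cxcl3 in the sham controls had 3.15, 2.60, 3.02, 2.80 and 3.02 at 0 h and 2.88, 3.01, 2.72, 3.83 and 2.89 at 48 h. Its changes differed by -2.28 ± 0.39 (adjusted p = 0.00359), or -2.33 (adjusted p = 0.000846) without that mouse. The differences of the other 5 genes and their adjusted p-values were -3.0 ± 0.74 (0.037) for Cxcl5, -1.10 ± 0.25 (0.025) for Gclc, -1.05 ± 0.24 (0.0236) for Vipr2, 1.11 ± 0.25 (0.0207) for Ube2t and 0.56 ± 0.11 (0.0115) for Ivd. Without sham 0 h mouse 1 they were -2.81 (0.0391), -1.06 (0.023), -1.07 (0.0143), 1.09 (0.0175) and 0.54 (0.00974). Cxcl5, Gclc, Vipr2 and Ube2t each fell short of the threshold without at least 1 other mouse, Cxcl5 with an adjusted p of up to 0.0999 (without SPIO 0 h mouse 4), Gclc of up to 0.0594 (without sham 0 h mouse 4), Vipr2 of up to 0.0773 (without sham 0 h mouse 2) and Ube2t of up to 0.0602 (without SPIO 0 h mouse 2), while Hmox1, Cxcl3 and Ivd were called in every such fit. With probe sets averaged the difference of Ube2t was 0.42 (adjusted p = 0.216).

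For the other leading genes the difference between the arms did not pass. Cxcl1 in sham controls had 7.16, 7.25, 7.91, 8.96 and 8.19 at 0 h and 7.02, 7.08, 6.85, 8.26 and 7.28 at 48 h, a log2 fold change of -0.60 (adjusted p = 0.17), or -0.78 (adjusted p = 0.0723) without sham 0 h mouse 1. Its changes differed by -1.55 ± 0.41 between the arms (adjusted p = 0.0566), and those of Cxcl2 by -1.45 ± 0.43 (adjusted p = 0.0801). Without sham 0 h mouse 1 these adjusted p-values were 0.0648 and 0.109, and Cxcl2 was then lower at 48 h in sham controls as well (-0.88, adjusted p = 0.0446). The difference was 1.62 ± 0.42 for Wfdc17 (adjusted p = 0.0529), 1.92 ± 0.52 for Prok2 (adjusted p = 0.0606), 0.63 ± 0.17 for Tfrc (adjusted p = 0.0566) and 1.62 ± 0.62 for Saa3 (adjusted p = 0.176). Without sham 0 h mouse 1 it passed for Wfdc17 (1.60, adjusted p = 0.0422) and Tfrc (0.62, adjusted p = 0.0441), and not for Prok2 (0.0549) or Saa3 (0.203).

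Other genes whose change differed between the arms were not called in exposed lungs. Rrm2 stood at 7.80, 6.96, 6.73, 6.77 and 6.88 in sham 0 h mice and at 6.17, 6.81, 6.26, 6.44 and 6.29 in sham 48 h mice, a log2 fold change of -0.64 (adjusted p = 0.0394), while in exposed lungs it was 0.81. The sham change was -0.44 and did not pass (adjusted p = 0.142) without sham 0 h mouse 1, which had the highest value. The difference of 1.44 ± 0.30 was called (adjusted p = 0.0115; 1.25 and 0.0138 without sham 0 h mouse 1). It was called in each of the 20 fits with a mouse left out. In sham controls 3 replication genes and 5 mitosis genes were lower at 48 h and 0 higher, and without sham 0 h mouse 1, in which Mki67 was 7.72 against 5.97 to 6.51 in the others, these were 3 and 2, with 1 replication gene higher. The 3 of 28 and 5 of 49 stand against 7.74% of all genes lower in sham controls. Cd163, the hemoglobin scavenger receptor of macrophages, had 7.67, 7.90, 7.53, 7.18 and 7.53 in sham 0 h mice and 6.07, 7.24, 5.73, 7.26 and 7.08 in sham 48 h mice. It was lower in sham controls (-0.89, adjusted p = 0.0229), had 0.66 in exposed lungs (adjusted p = 0.38) and a difference of 1.55 (adjusted p = 0.0364; 1.52 and 0.0278 without sham 0 h mouse 1), which was called in 12 of the 20 fits, with an adjusted p of up to 0.109 without sham 48 h mouse 3. Ms4a1, the B cell antigen CD20, went the other way, with 1.49 in sham controls (adjusted p = 0.0115), -0.80 in exposed lungs (adjusted p = 0.574) and a difference of -2.29 (adjusted p = 0.037; -2.65 and 0.00825 without sham 0 h mouse 1), called in 8 of the 20 fits, with an adjusted p of up to 0.0974 without sham 48 h mouse 3.

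The other sampling times place these 2 groups in the course of the exposed arm; they share the 0 h lungs and are given as a description. Of the 37 lower genes, 30 had their highest exposed group mean at 0 h and the other 7 at 6 h. Cxcl3 had exposed means of 5.13, 6.01, 3.37, 3.0, 3.10 and 2.85 over the 6 times and Cxcl5 of 8.35, 9.09, 6.60, 5.60, 4.39 and 4.49. Cxcl1 had the same mean, 9.76, at 0 h and 6 h, and 8.30 at 24 h. Hmox1 went down earlier, at 9.58, 8.95 and 8.09 over the first 3 times. Of the 57 higher genes, 50 had their lowest exposed mean at 0 h and 7 at 6 h, and the highest lay at 6 h for 2, at 24 h for 9, at 48 h for 24 and at 96 h for 22. Saa3 peaked at 48 h, with means of 8.68, 8.92, 9.38, 10.94, 9.83 and 8.90, and so did Prok2 and Wfdc17, whereas Sdf2l1 was at its highest exposed mean, 9.41, at 6 h and Mcm5 and Pclaf at 96 h, at 8.12 and 7.62. Compared at 0 h, the exposed mean was above the sham mean in 33 of the 37 lower genes and below it in 43 of the 57 higher genes. Without sham 0 h mouse 1 these were 33 and 38. All these counts use the SPIO 0 h values on which the genes were called, which favours extreme SPIO 0 h means. They are no evidence that the arms differed at 0 h.

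**Figure D4:**
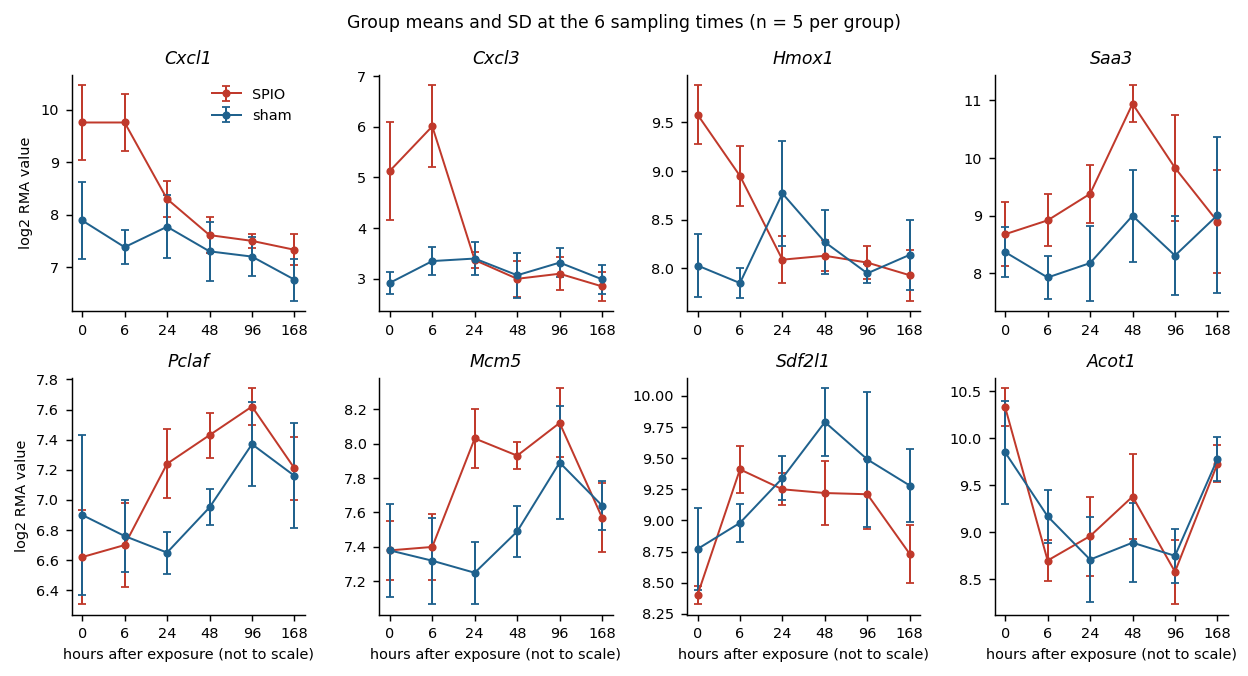
Group means with whiskers of 1 SD (n = 5 per group) of 8 genes, as log2 RMA values (vertical axes, each with its own range), at the 6 sampling times (horizontal axis, not to scale), for exposed lungs (red) and sham controls (blue). In exposed lungs Cxcl1 and Cxcl3 are high at 0 h and 6 h, Hmox1 at 0 h, Saa3 at 48 h and Pclaf and Mcm5 at 24 to 96 h, and Acot1 falls after 0 h in both arms.

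Across all 44 lists, 15 held at least 1 called gene and 29 held none, and 28 of the 94 called genes belonged to a list and 66 to none. Lists for lung cell types had medians of -0.02 for 15 genes of alveolar type 2 cells, 0.05 for 12 of type 1 cells, -0.01 for 22 of endothelium, 0.05 for 16 of ciliated cells, 0.16 for 16 of airway secretory cells and 0.26 for 11 of smooth muscle. Sterol synthesis had 0 of 14 called and a median of 0.26, ribosomal proteins 0 of 13 and -0.04, and the circadian clock 0 of 19 and 0.10, with the clock output gene Dbp at 1.24 (adjusted p = 0.0713) and the clock factor Arntl at -0.91 (adjusted p = 0.116). Markers of neighbouring tissue varied between single lungs. Mesothelial genes, which mark the lung surface, had 0 of 13 called and a median of -0.69, with array means of 6.37 to 8.24 at 0 h and 6.39 to 7.07 at 48 h. Cardiac muscle genes, which pulmonary veins also express, had 0 of 18 called and a median of 0.58, with array means of 5.99 to 9.25 and 5.58 to 9.06, and hepatocyte genes 0 of 13 and -0.54, with 4.72 to 7.13 and 4.63 to 4.84. Their part in the called genes was not tested.

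**Figure D5:**
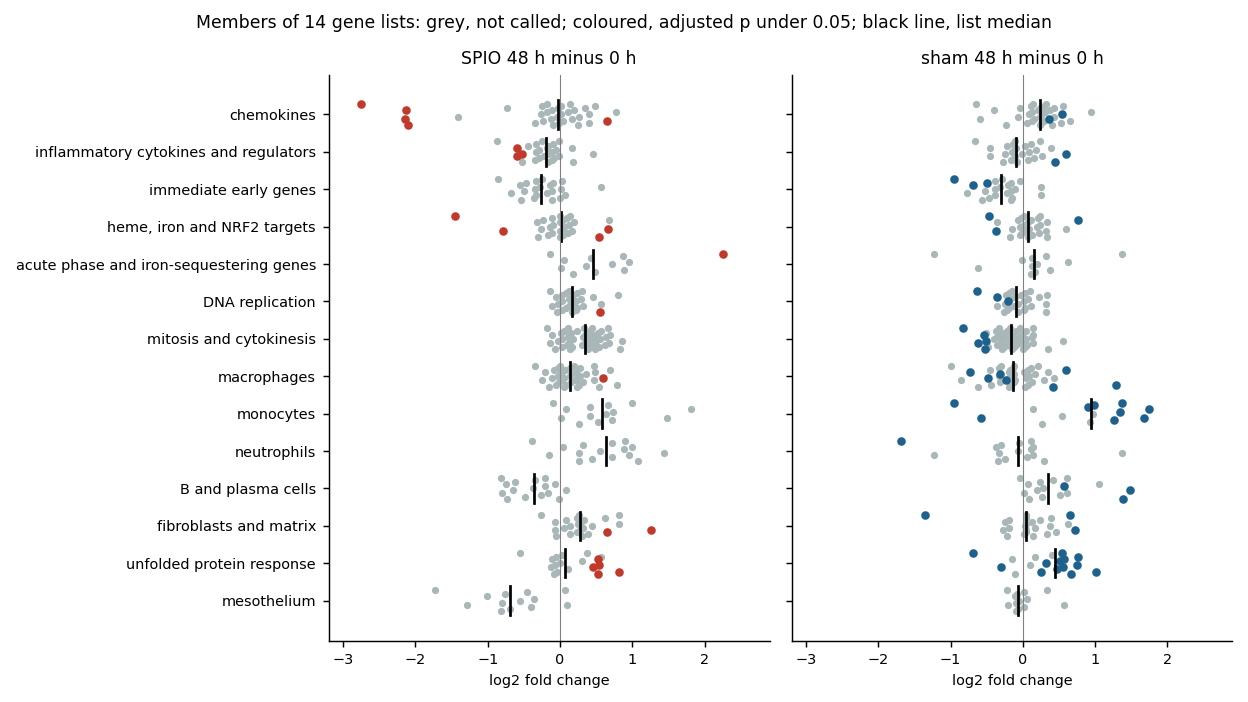
Log2 fold change from 0 h to 48 h (horizontal axes) of every measured member of 14 gene lists, in exposed lungs (left) and in sham controls (right), with 1 point per gene, grey where the adjusted p was not under 0.05 and coloured where it was; black lines are list medians. In exposed lungs the called points are 4 chemokines at the far left, Hmox1 and Gclc, 3 inflammatory regulators, and single members or small groups on the right, while the mitosis list, with a median of 0.35, holds none.

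Agreement between probe sets of a gene was checked for the 56 called genes that had others. Of their 104 other probe sets, 90 had the same sign, 26 were called in the same direction and 0 in the opposite one. Lpp, a focal adhesion protein named after its values were seen, was with Hyou1 the gene called in 0 of the 10 fits that left out a mouse.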

How the data were processed

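The study measured lung RNA of 60 male Balb/c mice on Affymetrix Mouse Genome arrays. The table that the authors deposited holds log2 values from RMA, which corrects background, applies quantile normalization and summarises each probe set; no RMA version was found. Labels placed every one of the 60 columns in a group, and replicates were separate mice, whose number limits the precision. Control probe sets (64) were dropped, as were, for lack of a single gene symbol, 932 with several symbols and 9160 without any. Where several of the remaining 34945 shared a symbol, the one with the highest overall mean was kept, leaving 18193 genes.

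A linear model of all 12 groups was fitted in limma 3.58.1 (R 4.3.3; 48 residual degrees of freedom). The contrasts were read from it: SPIO 48 h minus 0 h, sham 48 h minus 0 h, and the difference between them. Genes were called at a Benjamini-Hochberg adjusted p under 0.05 across the whole table. The p-values set a change against the spread between mice, estimated over all 12 groups together, and standard errors are those of the model. The text names list members, the 15 non-overlapping genes per direction with the largest change, the 8 per direction with the largest difference, and primer targets of the study with Ccl17; any other gene is stated as chosen after its values were seen. Comparison, lists and naming rule were chosen with earlier results of these data known. The list "metallothioneins" also holds zinc transporters.

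Each contrast was recomputed without each mouse of the groups it compares in turn. Results were also recomputed over all probe sets, with a gene's probe sets averaged, and after a filter on low signal (5 arrays or more at log2 6 or more). Another quantile normalization and median centring were tried too. Further fits used the compared groups alone, trended and robust variances, weighted arrays, or the replicate number as a block. A 1.5-fold or 2-fold minimum was applied and, within each arm, an unequal-variance test of the 2 groups with Benjamini-Hochberg adjustment. RefSeq (GRCm38.p6) promoter windows were joined on the symbol and covered 79 of the 94 called genes. The model was tested on simulated data. Plots were made in matplotlib 3.10.9 (Python 3.11.15).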

Additional observations from a re-analysis of the deposited data

Results flagged for a closer look

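The 4 groups of exposed and sham mice at 0 h and 48 h were searched for a mouse far from the other 4 of its group, for 146 called or named genes and for Alb and Xist in sham 0 h mice. Among these 586 groups 42 such values were found, where chance gives about 1 in 20 groups. At SPIO 0 h these were Cxcl5 in mouse 3 (6.85), Saa3 in mouse 3 (7.71), Itih5 in mouse 4 (8.44), Nfkbiz in mouse 4 (9.53), Nfam1 in mouse 5 (6.41), Ccl9 in mouse 5 (10.30) and Creld2 in mouse 1 (9.05). At SPIO 48 h they were Cxcl3 in mouse 3 (3.60), Tent5c in mouse 5 (10), Col18a1 in mouse 1 (8.33), Cxcl15 in mouse 1 (13.45), and, all in mouse 2, Mcm5 (7.80), Col6a3 (9.48), Cd79b (6.46) and Pou2af1 (4.95). Sham 0 h mouse 1 stood apart for Alb (14.02), Xist (11.94), Angptl7 (6.32), Tcf23 (5.47), Tnfaip3 (8.32), Tceanc (6.55), Fblim1 (8.80), Lgals1 (11.87), Igf1 (9.10), Rrm2 (7.80), Spc25 (5.94), Ctsb (11.66) and S100a4 (9.47). The other sham 0 h values were Vipr2 in mouse 2 (4.68) and, in mouse 5, Gclc (11.19), Tagln (11.75) and Ccr6 (7.07). At sham 48 h they were Tnc in mouse 1 (6.24), Cpt1a in mouse 3 (9.90), Cxcl3 (3.83), Mturn (8.56), Nop53 (11.14), Nfam1 (6.66) and Prok2 (3.83) in mouse 4, and Cyp27a1 (7.24), Tubb5 (11.27) and Mgp (13.90) in mouse 5.

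The change from 0 h to 48 h differed between SPIO nanoparticle exposed mice and sham controls, by the interaction of arm and time in the limma fit, for 18 of the named genes. It was more negative in exposed lungs for Cxcl5 (-3.0 on the log2 scale), Ms4a1 (-2.29), Cxcl3 (-2.28), Hmox1 (-1.69), Il33 (-1.13), Gclc (-1.10), Ifi204 (-1.09) and Vipr2 (-1.05). It was more positive for Wfdc21 (2.60), Ankrd37 (1.89), Cd163 (1.55), Rrm2 (1.44), Htr2c (1.37), Zfand4 (1.32), Tnik (1.30), Rbfox3 (1.28), Ube2t (1.11) and Ivd (0.56). Without sham 0 h mouse 1 all 18 were still called, and 6 of them (Hmox1, Cxcl3, Rrm2, Ankrd37, Tnik and Ivd) were called in each of the 20 fits with a mouse left out. The others were called in 7 (Ifi204) to 19 (Wfdc21 and Htr2c) of the 20. Without sham 48 h mouse 1, 10 of the 18 were no longer called, and with only the 4 groups fitted 13 were not.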

How the results depend on the processing

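The number of genes called in exposed lungs, 94, was 128 with all probe sets, 75 with each gene's probe sets averaged, 116 with the filter, 132 with quantile normalization again, 105 with centred arrays, 82 with only its 2 groups fitted (51 of them among the 94), 100 with trend and robust moderation, 248 with array weights (93 of the 94 kept), 0 with the unequal-variance test, 50 at 1.5-fold and 12 at 2-fold, and 39 to 88 with a mouse left out. In sham controls the 2098 became 12 with only the 2 groups fitted, 4820 with array weights, 0 with the unequal-variance test (3464 at an unadjusted p under 0.05; 5106 by limma), 300 at 1.5-fold and 54 at 2-fold, and 911 (without sham 48 h mouse 3) to 3415 (without sham 48 h mouse 4) with a mouse left out. The difference between the arms, 111, became 64 with each gene's probe sets averaged, 192 with the filter, 18 with only the 4 groups fitted, 1846 with array weights and 25 at 2-fold, and 32 (without sham 48 h mouse 1) to 466 (without sham 48 h mouse 4) with a mouse left out; the causes were not tested. Cxcl15, at -0.09, was 0.00 with its probe sets averaged. The deviations of same-numbered mice correlated from -0.47 to 0.48 between 0 h and 48 h within an arm. Between the arms at a time these correlations ran from -0.32 to 0.08. Differently numbered mice were not set beside them, so whether mice of the same number shared a batch was not tested. With the number as a replicate block 90, 1913 and 78 genes were called. The unequal-variance test compares a pair of groups and was not run for the difference between the arms.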

Other observations

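Genes outside the lists and the comparison's main groups included enzymes of serine synthesis and mitochondrial fat use, named after their values were seen. Phgdh and Psat1, successive enzymes of serine synthesis, were higher at 48 h in exposed lungs by 0.57 (adjusted p = 0.0478) and 0.80 (adjusted p = 0.0478) on the log2 scale. Both were called in 1 of the 10 fits with a mouse left out. In sham controls Phgdh had 0.36 (adjusted p = 0.0907) and Psat1 had 0.59 (adjusted p = 0.0471). Without sham 0 h mouse 1 both rose there, by 0.57 (adjusted p = 0.00133) and 0.78 (adjusted p = 0.00583). Slc25a20, which carries fatty acids into mitochondria as carnitine esters, was lower by 0.46 in size (log2 fold change -0.46, adjusted p = 0.00579). Cyp27a1, a mitochondrial sterol hydroxylase, was lower too (-0.51, adjusted p = 0.0298). Cyp27a1 was called in 2 of the 10 fits with a mouse left out, and with its probe sets averaged it had -0.24 (adjusted p = 0.0679). In sham controls Slc25a20 had -0.56 and Cyp27a1 -0.67, with adjusted p-values of 9.69e-05 and 0.000368. Mgp, an inhibitor of calcification, was higher by 0.71 (adjusted p = 0.00275), and H1f2, a linker histone, was lower (-0.64, adjusted p = 0.00185). Mgp and H1f2 were called whichever mouse was left out. Mgp also rose in sham controls (0.39, adjusted p = 0.0476), but not without sham 0 h mouse 1 (0.36, adjusted p = 0.0809). H1f2 did not pass there (-0.10, adjusted p = 0.593).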
